A study of Mus musculus with 16 samples.

Results

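The genes described here encode the cyclins that drive cells through G1, the kinases they activate and the inhibitors that hold those kinases back. They are 10 of the 24946 genes listed in both expression tables, chosen by symbol: the D cyclins Ccnd1, Ccnd2 and Ccnd3, the E cyclins Ccne1 and Ccne2, the kinases Cdk4 and Cdk6, and the inhibitors Cdkn1a, Cdkn1b and Cdkn1c. Neural stem cells (NSCs) were grown from neonatal Tsc2 mut/mut and Tsc2 wt/wt mice, out of the wall of the lateral ventricle where such cells reside (the ventricular-subventricular zone, V-SVZ). From each of 4 mutant and 4 wild-type cultures, total and polyribosomal RNA were sequenced, which makes 16 libraries, 4 to a group. Polyribosomal RNA comes from the densest fractions of a sucrose gradient and holds mRNA loaded with several ribosomes. Mutant cultures came from pups with conditional Tsc2 alleles, an RFP reporter and CRE-ERT2 driven by the Nestin promoter, which is active in neural stem and progenitor cells. Recombination was started in the pups by tamoxifen, and the culture methods list control pups among those injected. Nestin-CRE-ERT2 pups were also given EdU, a thymidine analogue, with the tamoxifen. Wild-type pups carried intact Tsc2 alleles, and the sources used here leave unclear whether they also carried CRE-ERT2. All cultures were expanded with EGF and FGF on laminin, passaged and treated with cycloheximide, which holds ribosomes on mRNA, before lysis. The sources name both sexes for the mice but no sex for any culture.

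In quiescent cells the RB proteins hold the E2F transcription factors inactive. Growth factor signals raise D cyclins, which activate the kinases CDK4 and CDK6 and start the phosphorylation of RB, and E cyclins with CDK2 complete it and open S phase. The CIP/KIP inhibitors p21, p27 and p57, the products of Cdkn1a, Cdkn1b and Cdkn1c, bind cyclin-CDK complexes and restrain CDK2. Tsc2 encodes tuberin, which restrains mTORC1, a kinase complex that promotes translation and cell growth, and cyclin D1 is known as a protein whose synthesis responds to mTORC1. In the V-SVZ, p21 and p27 are known to limit the divisions of stem cells and their transit-amplifying progeny.

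Promoter sequences are shown for Cdk4 and Cdk6, the kinase genes whose total RNA changed with genotype, because MYC family genes of the same pathway are described further on. MYC-MAX dimers and the opposing MXD-MAX dimers bind the E-box CACGTG, which reads the same on both strands. Promoters were taken from RefSeq (GRCm38.p6) as 250 bases before to 50 after an annotated start, and 8 such windows were found for 6 of the 10 genes. Capitals mark each E-box.

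Cdk4, chr10:127063285-127063584, plus strand: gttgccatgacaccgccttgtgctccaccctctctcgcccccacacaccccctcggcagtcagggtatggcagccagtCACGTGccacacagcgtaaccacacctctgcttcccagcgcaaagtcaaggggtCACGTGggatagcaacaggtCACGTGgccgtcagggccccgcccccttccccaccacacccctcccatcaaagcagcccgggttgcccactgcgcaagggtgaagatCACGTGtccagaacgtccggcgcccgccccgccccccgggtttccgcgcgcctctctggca
Cdk6, chr5:3343643-3343942, plus strand: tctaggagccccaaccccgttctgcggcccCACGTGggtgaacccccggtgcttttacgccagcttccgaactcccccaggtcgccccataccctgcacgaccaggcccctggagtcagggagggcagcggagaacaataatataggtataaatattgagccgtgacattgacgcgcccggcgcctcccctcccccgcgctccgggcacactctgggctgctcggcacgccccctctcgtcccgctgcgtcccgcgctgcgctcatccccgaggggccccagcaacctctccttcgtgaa

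The Cdk4 window holds 4 E-boxes, whose first bases lie at -172, -118, -98 and -11 from the start, and the Cdk6 window holds 1, at -220. Of 32851 promoter windows of the same length, 7.15% hold at least 1 E-box and 8 hold 4 or more. The other 6 windows, of Ccnd3, Ccne1, Cdkn1a and Cdkn1b, hold none. The E2F words TTTGGCGC, TTTCCCGC, TTTGCCGC and TTTCGCGC, searched on both strands, are in 2.26% of all windows and in none of these 8. A match describes the letters and does not show that a factor binds there.

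The normalized values of a library summed to 65.6 to 73.7 M for total RNA and 87.4 to 100.5 M for polyribosomal RNA, and the step between the smallest values put the depth at about 24.6 to 139 M and 52.3 to 266 M reads. All 15 NSC markers checked, among them Nes, Sox2 and Egfr, were detected in every library, with a mean log2 value in total RNA of 14.4 to 14.6 in mutant cultures and 14.4 to 14.7 in wild-type cultures. Single markers differed between genotypes. In mutant total RNA 4 of the 15 were higher and 2 lower (limma adjusted p under 0.05), and on polyribosomes 2 were higher and 4 lower. The log2 changes in total RNA included Hes5 at -1.95 ± 0.28, Sox9 at 0.68 ± 0.14 and Gfap at 1.16 ± 0.27 (limma adjusted p = 0.00260, 0.00632 and 0.00898). Translational efficiency, the change of polyribosomal relative to total RNA, was higher for 0 of the 15 and lower for 2. These were Notch1 (-1.05 ± 0.19) and Sox9 (-0.61 ± 0.14) (limma adjusted p = 0.00691 and 0.0132). Tsc2 itself overlapped between genotypes in total RNA (log2 change -0.10 ± 0.10 SE, limma adjusted p = 0.422) and fell by 0.49 ± 0.15 in polyribosomal RNA (limma adjusted p = 0.0389). A deletion of part of the gene need not lower its summed reads, so these values do not check the labels. The 4 Y-linked genes measured summed to 4775, 48.6, 16.4 and 6.57 normalized reads in total RNA of mutant cultures 1 to 4, against 4203, 4967, 5802 and 258 in wild-type cultures 1 to 4. Microglial markers (15 genes) summed to 7657, 29197, 6387 and 16176 in the same mutant cultures and to 4604 to 6813 in wild-type cultures.

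**Figure D1:**
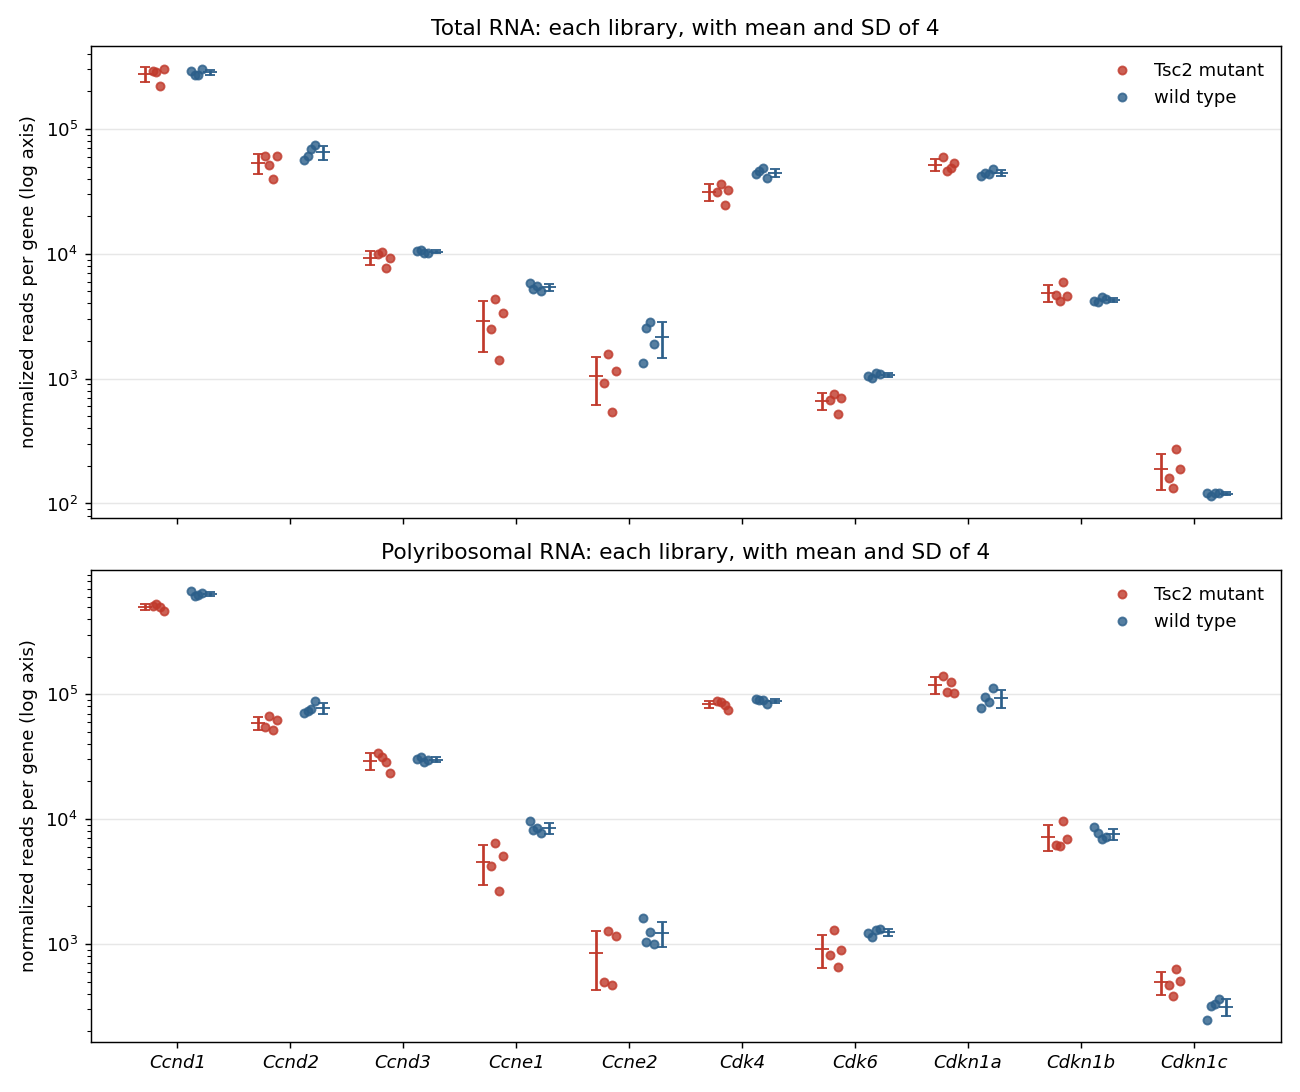
Normalized reads per gene (log axis) of the 10 genes in total RNA (upper panel) and polyribosomal RNA (lower panel), 1 point per library, Tsc2 mutant left of wild type. Bars beside the points are group means with SD (n = 4). Ccne1 lies between 1401 and 4374 in the mutant and between 5031 and 5815 in the wild-type total RNA libraries.

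The amount of these mRNAs was compared first. In total RNA the E cyclins and both kinases fell and Cdkn1c rose, while no D cyclin passed the test. Thus 5 of the 10 genes passed (limma with Benjamini-Hochberg adjustment over all genes, adjusted p under 0.05), against 40.3% of the 14967 genes tested. In mutant cultures 1 of them was higher and 4 were lower, where 19.7% and 20.7% of all genes were. The median log2 change of the 10 genes was -0.23, and that of all genes 0.01. Values did not overlap between genotypes for 4 of the 10 genes, Ccne1, Cdk4, Cdk6 and Cdkn1c, against 38.1% of all genes. A lower value in a culture can mean fewer cells that express a gene or less RNA per cell, and these cannot be told apart.

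Of the D cyclins, Ccnd1 (chromosome 7, 144929931 to 144939925, GRCm38) had by far the highest values of the group. Its total RNA was at 291591, 283924, 222142 and 303818 normalized reads in mutant cultures 1 to 4 and at 289368, 273099, 273101 and 301036 in wild-type cultures 1 to 4. Apart from the low mutant culture 3 the libraries lay together, and the log2 change was -0.05 ± 0.10 (limma adjusted p = 0.696), with a sign that turned under other scalings. On polyribosomes Ccnd1 was at 512175, 531044, 497047 and 463596 in mutant cultures, against 666253, 616439, 624850.5 and 648692 in wild-type cultures. Every mutant library lay below every wild-type library, and Ccnd1 fell by 0.35 ± 0.09 as a log2 change (limma adjusted p = 0.0145). The call was lost when only library size was used for scaling (log2 change -0.23, adjusted p = 0.0600) and when the mean Y-linked level entered the fit as a covariate (-0.32, adjusted p = 0.146). The test of translational efficiency, which asks whether polyribosomal RNA changed more or less than total RNA of the same cultures, gave -0.30 ± 0.11 and did not pass (limma adjusted p = 0.0910), although it passed without mutant culture 3 (-0.39, adjusted p = 0.0279). Ccnd1 shares 1100 annotated exon bases with Oraov1 (LTO1) on the other strand, and the libraries were not stranded. Oraov1 averaged 68282 ± 11328 on polyribosomes of mutant cultures and 61073 ± 4817 in wild-type cultures (SD, n = 4 each).

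Ccnd2 (chromosome 6, 127125162 to 127152193), the D cyclin of many neural progenitors, ranged more widely. In total RNA its values were 60527, 51574, 40074 and 60789 in mutant cultures and 55976, 60719.8, 69020.5 and 74943 in wild-type cultures, which overlapped (log2 change -0.30 ± 0.15, limma adjusted p = 0.118). Polyribosomal values were 54523, 67213, 51249.9 and 61747 in mutant cultures, against 70308, 73243, 76663 and 88042 in wild-type cultures. Those groups did not overlap, and Ccnd2 fell by 0.40 ± 0.12 (limma adjusted p = 0.0334), a call that was lost without mutant culture 1 or 3 or without wild-type culture 2, 3 or 4 (adjusted p 0.0669 to 0.0903), with either other scaling and with the Y-linked covariate (-0.48, adjusted p = 0.133). Translational efficiency of Ccnd2 did not pass (-0.09 ± 0.13, limma adjusted p = 0.653). Antisense transcripts are annotated over 368 and 372 of its exon bases.

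Ccnd3 (chromosome 17, 47505051 to 47599691), the third D cyclin, overlapped between genotypes in both fractions. It averaged 9318 ± 1199.9 in total RNA of mutant cultures and 10358 ± 281 in wild-type cultures, and 29379.8 ± 4468 on polyribosomes of mutant cultures and 29936 ± 1273 in wild-type cultures (SD, n = 4 each). The log2 changes were -0.16 ± 0.10 in total RNA and -0.04 ± 0.13 on polyribosomes, and neither passed (limma adjusted p = 0.209 and 0.843). Its exons overlap those of Bysl, a ribosome assembly gene, by 361 bases, and Bysl fell by 0.73 ± 0.15 in total RNA (limma adjusted p = 0.00645).

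The E cyclins changed more. Ccne1 (chromosome 7, 38097984 to 38107534), which activates CDK2 late in G1, was at 2484, 4374, 1401 and 3386 in total RNA of mutant cultures and at 5815, 5239, 5480.1 and 5031 in wild-type cultures. The mutant cultures spread over a wide range and all lay below the wild-type ones, with an SD of 1269 in mutant and 337 in wild-type cultures. Ccne1 fell by 1.01 ± 0.28 in log2 (0.498-fold, limma adjusted p = 0.0184). Polyribosomes held 4198, 6412, 2634 and 5015 normalized reads of Ccne1 in mutant cultures, against 9602, 8102, 8408 and 7749 in wild-type cultures. The order of the mutant cultures was the same as in total RNA, and the fall was 0.96 ± 0.22 (limma adjusted p = 0.0116). The change in translational efficiency was 0.05 ± 0.12, with a 95% interval of -0.20 to 0.30 (limma adjusted p = 0.817). Both calls held without each culture in turn (adjusted p 0.00357 to 0.0487 in total RNA and 0.00244 to 0.0374 on polyribosomes). Both were lost with the Y-linked covariate (log2 change -0.99 and -0.82, adjusted p = 0.112 and 0.156). No annotated gene shares exon bases with Ccne1.

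Ccne2 (chromosome 4, 11191351 to 11204779), the second E cyclin, had 922, 1582, 536 and 1146 normalized reads in total RNA of mutant cultures and 1323, 2541, 2864 and 1889 in wild-type cultures. Wild-type culture 1 lay inside the mutant range, and Ccne2 fell by 1.09 ± 0.32 (limma adjusted p = 0.0241), a call lost without mutant culture 1 or wild-type culture 2 or 3 (adjusted p 0.0576 to 0.0681). In polyribosomal RNA it was at 499.9, 1261, 468 and 1149.5 in mutant cultures, against 1600.2, 1045, 1245 and 990.2 in wild-type cultures. Mutant cultures 2 and 4 were as high as the wild-type cultures there, and the log2 change of -0.65 ± 0.32 did not pass (limma adjusted p = 0.162). Without those cultures, which had the highest microglial marker sums, it was -1.31 and passed (adjusted p = 0.00120), as it did without mutant culture 2 alone (-0.89, adjusted p = 0.0421). Without mutant culture 1 or 3 alone it was -0.45 or -0.42 (adjusted p = 0.350 and 0.363). The change in translational efficiency, 0.43 ± 0.33 (limma adjusted p = 0.407), passed only without wild-type culture 1 (0.79, adjusted p = 0.00302). Ccne2 shares 609 exon bases with Ints8 on the other strand, and Ints8, which had more reads than Ccne2, fell by 0.54 ± 0.12 in total RNA (limma adjusted p = 0.00807), and reads in the shared bases cannot be assigned to either gene.

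The kinase gene Cdk6 (chromosome 5, 3341485 to 3531008) had the smallest adjusted p of the 10 genes in total RNA. It was at 674, 759.9, 524 and 704 in mutant cultures, against 1047, 1019.7, 1119.7 and 1087 in wild-type cultures. No mutant library came near the wild-type ones, and Cdk6 fell by 0.69 ± 0.12 (0.618-fold, limma adjusted p = 0.00386). Polyribosomal Cdk6 was at 819, 1281, 649.8 and 888 in mutant cultures and at 1213, 1137, 1293 and 1318 in wild-type cultures. Mutant culture 2 alone lay among the wild-type cultures. The log2 change there, -0.49 ± 0.19, did not pass (limma adjusted p = 0.0760), whereas without mutant culture 2 it was -0.67 and passed (adjusted p = 0.00934). An antisense transcript is annotated over 368 exon bases of Cdk6.

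Cdk4 (chromosome 10, 127063534 to 127067920), the partner of D cyclins with the far higher values, fell in total RNA and did not pass on polyribosomes. Total RNA held 31074, 36454, 24613 and 32697 normalized reads in mutant cultures and 43344, 45846, 48734 and 40722 in wild-type cultures. The groups did not overlap, and Cdk4 fell by 0.53 ± 0.12 (limma adjusted p = 0.00828). Polyribosomal values were 87981, 86000.3, 82576 and 75129 in mutant cultures, against 91456, 90279, 89714 and 83752 in wild-type cultures. These overlapped, with a log2 change of -0.10 ± 0.10 (95% interval -0.31 to 0.11, limma adjusted p = 0.474). Cdk4 was the only one of the 10 genes whose translational efficiency passed, and it rose by 0.43 ± 0.13 (limma adjusted p = 0.0353), where 13.0% of 14333 genes passed, 5.07% higher and 7.89% lower in mutant cultures. For Cdk6, Ccnd3, Cdkn1a and Cdkn1c the changes in translational efficiency were 0.21 ± 0.14, 0.12 ± 0.13, 0.13 ± 0.12 and 0.04 ± 0.18 and did not pass. The median change in translational efficiency was 0.09 for the 10 genes and 0.01 for all genes. The call for Cdk4 was lost without mutant culture 1 or 3 or without wild-type culture 2, 3 or 4 (log2 change 0.32 to 0.44, adjusted p 0.0589 to 0.114). It was also lost with the Y-linked covariate (0.46, adjusted p = 0.215), with no filter on low values (adjusted p = 0.0558) and without the culture block (adjusted p = 0.201). Cdk4 shares 641 exon bases with Tspan31, which averaged 6694 ± 456 in total RNA of mutant cultures and 7783 ± 182 in wild-type cultures, well below Cdk4, and whose translational efficiency did not pass (0.24 ± 0.12, limma adjusted p = 0.199).

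**Figure D2:**
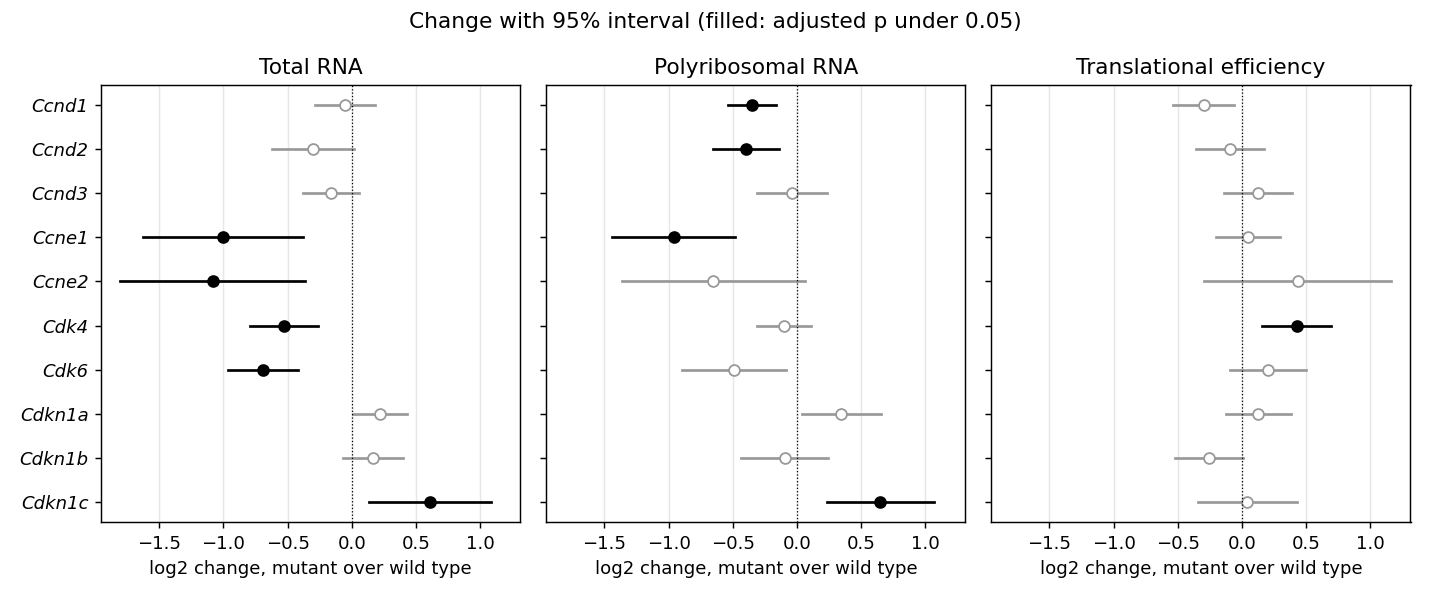
Log2 change, Tsc2 mutant over wild type, of each gene in total RNA, polyribosomal RNA and translational efficiency (x axis), as a point with its 95% interval. Filled black points passed at an adjusted p under 0.05: 5 genes in total RNA, 4 in polyribosomal RNA, and Cdk4 alone in translational efficiency.

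Of the inhibitors, Cdkn1c (chromosome 7, 143458339 to 143461050), which encodes p57, was the least abundant and the one that rose. Its total RNA values were 161, 133, 275 and 189.7 in mutant cultures, against 122, 114, 121 and 120.2 in wild-type cultures. The wild-type cultures were nearly alike and all below the mutant ones, of which culture 3 was highest. The rise was 0.61 ± 0.21 in log2 (limma adjusted p = 0.0437), and the call was lost in 7 of 8 fits that left out 1 culture, all but the one without mutant culture 2 (log2 change 0.42 to 0.67 in those 7, adjusted p 0.0630 to 0.0970). On polyribosomes Cdkn1c was at 468, 379, 628 and 503 in mutant cultures and at 245, 317, 329 and 359 in wild-type cultures. Again the groups did not overlap, with a rise of 0.65 ± 0.19 (limma adjusted p = 0.0303) that was lost without any 1 of mutant cultures 1, 3 and 4 or wild-type cultures 1, 2 and 3 (adjusted p 0.0521 to 0.0823) and with the Y-linked covariate (0.46, adjusted p = 0.299). An antisense transcript covers 625 of its exon bases.

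Cdkn1a (chromosome 17, 29090976 to 29100727), which encodes p21, was the most abundant inhibitor, and its higher mean in mutant cultures did not pass. Values in total RNA were 59599, 46045, 48389 and 53384 in mutant cultures and 41701, 44697, 43634 and 47490.1 in wild-type cultures. Mutant culture 2 and wild-type culture 4 crossed, and the log2 change was 0.22 ± 0.09 (limma adjusted p = 0.0886). Polyribosomal values were 141043, 104609, 124948 and 102605 in mutant cultures, against 77457, 95303, 86821 and 112634 in wild-type cultures, and wild-type culture 4 lay above mutant cultures 2 and 4 (log2 change 0.35 ± 0.14, limma adjusted p = 0.0901). With library size alone or upper quartile scaling it passed in both fractions (log2 change 0.29 to 0.47, adjusted p 0.0193 to 0.0396), and so it did in total RNA without mutant culture 2 (0.27, adjusted p = 0.0436) and on polyribosomes without wild-type culture 4 (0.44, adjusted p = 0.0490). A transcript on the other strand is annotated over 273 exon bases of Cdkn1a.

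Cdkn1b (chromosome 6, 134920401 to 134925513), which encodes p27, averaged 4847 ± 751 in total RNA of mutant cultures and 4294 ± 161 in wild-type cultures, and 7228 ± 1676 on polyribosomes of mutant cultures and 7612 ± 783 in wild-type cultures (SD, n = 4 each). Mutant culture 3 was the highest of the 8 in both fractions, at 5934 and 9678. The log2 changes were 0.16 ± 0.11 and -0.10 ± 0.16, and that of translational efficiency -0.26 ± 0.13. None of these passed (limma adjusted p = 0.232, 0.687 and 0.177).

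Taking the polyribosomal table as a whole, 4 of the 10 genes passed, against 23.6% of the 14412 genes tested. Cdkn1c was higher and Ccnd1, Ccnd2 and Ccne1 were lower in mutant cultures, where 11.7% of all genes were higher and 11.9% lower. The same 4 genes had no overlap between genotypes, as did 27.9% of all genes, and the median change was -0.23, beside 0.01 for all genes. Only Ccne1 and Cdkn1c passed in both fractions. The balance of calls over all genes depended on scaling. In total RNA 2944 genes were higher and 3091 lower in mutant cultures as deposited, 3833 and 2263 with library size alone, and 3568 and 2498 with upper quartile scaling. On polyribosomes the counts were 1690 higher and 1713 lower as deposited, 2583 and 929 with library size alone, and 2188 and 1211 with upper quartile scaling, and for translational efficiency 727 and 1131 as deposited and 920 and 946 with library size alone. Library size alone moved the polyribosomal median of all genes to 0.13. Under either scaling none of the 10 genes changed sign in a comparison where it was called.

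The level of each gene was also set per kilobase of its median annotated coding transcript, which allows an order within a library. In mutant total RNA the order was Ccnd1 at 73628 ± 9737 normalized reads per kilobase (SD, n = 4), Ccnd2, Cdkn1a, Cdk4, Ccnd3, Ccne1, Cdkn1b, Cdk6, Ccne2 and Cdkn1c at 148 ± 47.8. In wild-type total RNA Ccnd1 was at 75976 ± 3642 and Cdkn1c at 93.5 ± 2.80, and Cdk4 stood before Cdkn1a. The ranges of neighbours overlapped for Ccnd1 and Ccnd2 in both genotypes. In mutant cultures they also overlapped for Cdkn1a and Cdk4, for Ccne1 and Cdkn1b, and for Ccne2 and Cdkn1c. The annotated transcripts of Ccnd2 and Cdk6 differ greatly in length (median 994.5 and 697 bases, longest 6330 and 11525). With the longest transcript Ccnd2 had rank 4 in total RNA of both genotypes and was no longer next to Ccnd1. Cdk6 then moved from rank 8 to rank 10 in mutant and rank 9 in wild-type total RNA.

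Most of these mRNAs lay above the median gene in the ratio of polyribosomal to total value. In each culture as many of all genes lie above that median as below it. The log2 ratio of polyribosomal over total value, minus the median of the 14333 genes tested in both tables, was above 0 for 9 of the 10 genes in mutant cultures and for the same 9 in wild-type cultures. Ccne2 was the exception, at -0.14 ± 0.40 in mutant cultures and -0.60 ± 0.75 in wild-type cultures (SD, n = 4 each). Ccnd3 stood highest, at 1.87 ± 0.23 in mutant cultures and 1.72 ± 0.04 in wild-type cultures. Cdk4 was at 1.70, 1.42, 1.97 and 1.45 in mutant cultures, against 1.31, 1.14, 1.05 and 1.23 in wild-type cultures, so that each mutant culture lay above each wild-type one. For Ccnd1 the mutant cultures were at 1.01, 1.09, 1.39 and 0.86 and the wild-type cultures at 1.43, 1.34, 1.36 and 1.30, with mutant culture 3 inside the wild-type range. The 2 tables were normalized separately, so the ratio ranks genes within a culture and its zero is set by the centring. Centred on column totals, 8 of the 10 genes were above 0 in mutant and 7 in wild-type cultures. Ccnd2 was then at -0.25 in mutant and -0.19 in wild-type cultures, and Cdk6 at 0.02 and -0.22. The share of all genes above 0 was not computed for that centring.

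**Figure D3:**
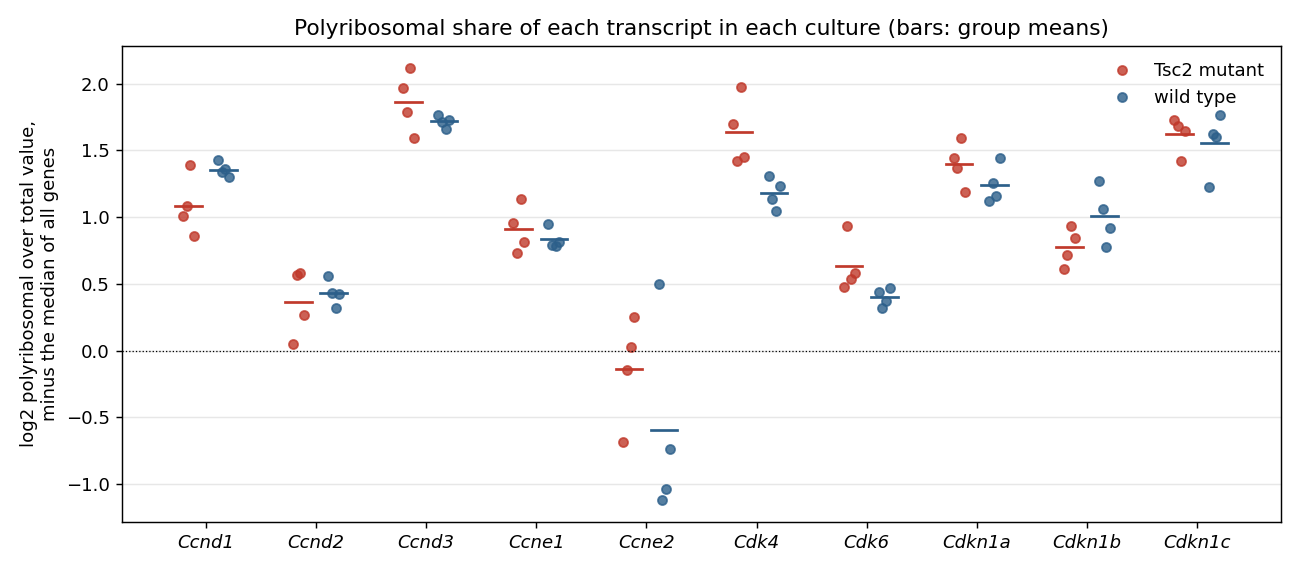
Log2 ratio of polyribosomal over total value, minus the median of all genes, for each gene in each culture (points) with the group means (bars), Tsc2 mutant left of wild type. All 4 mutant cultures lie above all 4 wild-type cultures for Cdk4, and Ccne2 is the one gene with group means below 0.

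Several of the 10 genes varied together across cultures. Over the 16 libraries, as deviations from the mean of each table, Ccne1 correlated with Ccne2 (Pearson r = 0.878), Cdk6 (0.934) and Cdk4 (0.781), and with Cdkn1c at -0.945. These are descriptions: the 16 libraries come from 8 cultures, and both genotypes are in them. Among the 14333 genes, the closest to Ccne1 were Mms22l (0.990), a gene of replication fork repair, and Tigar (0.988). The closest to Ccne2 was Abce1 (0.984), and the closest to Cdk4 was Nme6 (0.986). For Cdk6 they were 2010204K13Rik (0.957) and Fam181a (0.953), and for Cdkn1c they were Apoe (0.969), the astroglial lipid carrier gene, and Pttg1ip (0.968). Likeness was lower for the D cyclins, led by Stk10 (0.899) and Sprtn (0.898) for Ccnd1, Akirin1 (0.897) for Ccnd2, and Map2k2 (0.899) and Plk3 (0.894) for Ccnd3. The inhibitors Cdkn1a and Cdkn1b were closest to Map3k7cl (0.947) and Rtl8b (0.942), and to Nr2f1 (0.898) and Smad1 (0.842).

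All E2F genes that passed were lower in mutant cultures, and the RB genes that passed were higher. Of 13 RB and E2F family genes, 7 fell and 2 rose in total RNA, with a median log2 change of -0.46. E2f2 fell by 0.76 ± 0.19, E2f5 by 0.47 ± 0.10 and E2f4 by 0.46 ± 0.12 (limma adjusted p = 0.0110, 0.00590 and 0.0124). The risers were the genes of RB itself and of its relative p130, Rb1 at 0.34 ± 0.10 and Rbl2 at 0.39 ± 0.10 (limma adjusted p = 0.0239 and 0.0139). On polyribosomes 6 of the 13 fell, of which E2f2 (-1.08 ± 0.20), E2f3 (-0.82 ± 0.17) and E2f7 (-0.80 ± 0.21) had the smallest p, and Rb1 rose by 0.51 ± 0.17 (limma adjusted p = 0.00460, 0.00802, 0.0178 and 0.0438). Translational efficiency fell for E2f3 (-0.57 ± 0.13) and E2f7 (-0.45 ± 0.13) (limma adjusted p = 0.0128 and 0.0360).

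The genes that act with and after the E cyclins were lower in mutant total RNA. All 7 genes of CDK2, its A cyclin, its activating kinase and related factors fell in total RNA, by a median of 0.50, among them Cdc25a, the phosphatase that activates CDK2 (-0.83 ± 0.19), Ccnh (-0.50 ± 0.11) and Cdk1 (-0.64 ± 0.17) (limma adjusted p = 0.00915, 0.00836 and 0.0147). In polyribosomal RNA 2 of the 7 fell, Cdc25a by 1.14 ± 0.20 and Cdk2 by 0.44 ± 0.13 (limma adjusted p = 0.00393 and 0.0279), and no change in translational efficiency passed (limma, 2 of 7 at an unadjusted p under 0.05). All 30 S phase genes fell in total RNA and 19 of 30 on polyribosomes, with medians of -0.73 and -0.56. In translational efficiency 3 of the 30 rose and 0 fell, where 5.07% of all genes rose, and the median was 0.16 beside 0.01 for all genes. Those 3 were Tk1 (0.42 ± 0.13), Pola1 (0.50 ± 0.16) and Gins2 (0.39 ± 0.13) (limma adjusted p = 0.0414, 0.0474 and 0.0493). The mean level of the 30 genes in total RNA, relative to the mean over the 8 libraries, was -0.50, 0.07, -0.94 and -0.15 in mutant cultures 1 to 4 and 0.46, 0.36, 0.49 and 0.21 in wild-type cultures 1 to 4. Mutant cultures 3 and 1 were lowest, as they were for Ccne1 and Ccne2.

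**Figure D4:**
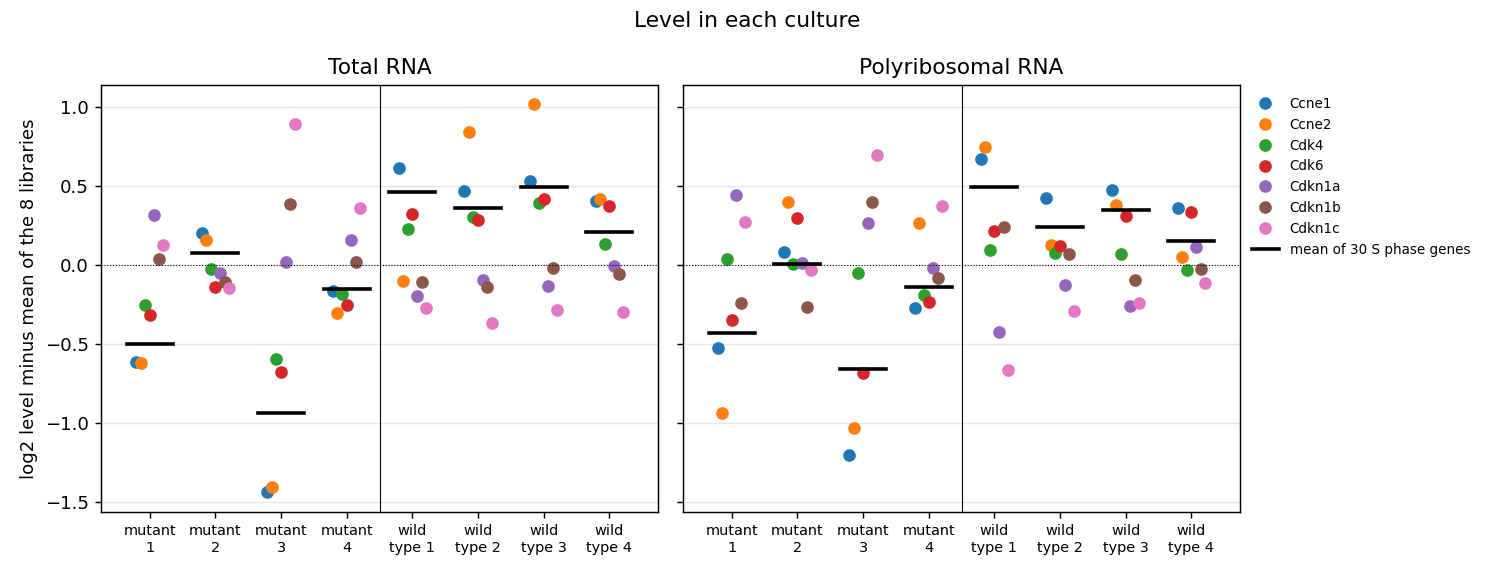
Log2 level of 7 of the genes in each culture, minus the mean of the 8 libraries of its table (y axis), with the mean of 30 S phase genes as a black bar, mutant cultures left of wild-type cultures. In total RNA mutant culture 3 has the lowest S phase mean (-0.94) and the highest Cdkn1c, and mutant culture 2 has S phase, Ccne1 and Cdkn1c levels nearest to the wild-type cultures.

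The genes that turn over G1 regulators showed mixed changes. Of 14 ubiquitin ligase genes of this kind, 5 fell and 1 rose in total RNA. The falls included Skp2 (-0.92 ± 0.22) and its cofactor Cks1b (-0.82 ± 0.16), which together direct p27 to degradation, and Rbx1 (-0.32 ± 0.08), and the riser was Dcaf11 (0.30 ± 0.10) (limma adjusted p = 0.0107, 0.00512, 0.0140 and 0.0315). On polyribosomes Skp2 fell by 1.05 ± 0.23 and Dcaf11 rose by 0.51 ± 0.16 (limma adjusted p = 0.0101 and 0.0392). Cks1b resembled Cdk4: its translational efficiency rose by 0.79 ± 0.15, as did that of Rbx1 (0.61 ± 0.18) and Cul1 (0.47 ± 0.15), while that of Rnf123 fell by 0.48 ± 0.13 (limma adjusted p = 0.00726, 0.0323, 0.0488 and 0.0215). None of the 4 INK4 inhibitors, which bind CDK4 and CDK6, passed in any comparison (limma, 1, 2 and 1 at an unadjusted p under 0.05 in total RNA, polyribosomal RNA and translational efficiency), with Cdkn2b at 0.54 ± 0.20 in total RNA (limma adjusted p = 0.0548).

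Transcription factor families known to act on these genes were compared too. Of 22 p53 target genes other than Cdkn1a, 3 rose and 2 fell in total RNA, among them Bbc3 (0.80 ± 0.19), which promotes apoptosis, Aen (-0.50 ± 0.13) and Tigar (-0.60 ± 0.16) (limma adjusted p = 0.00888, 0.0143 and 0.0147). The median of these genes was 0.01, as for all genes. On polyribosomes Polk rose by 0.92 ± 0.17, Bbc3 by 0.89 ± 0.25 and Fas by 0.79 ± 0.24, and Tigar fell by 0.62 ± 0.15 (limma adjusted p = 0.00520, 0.0278, 0.0366 and 0.0128), and Polk rose in translational efficiency (0.59 ± 0.17, limma adjusted p = 0.0278).

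FoxO factors, which AKT restrains and which are known to induce Cdkn1b, and their targets rose in total RNA for 10 of 14 genes, with a median of 0.54. Foxo3 rose by 0.64 ± 0.10, Pik3ip1 by 1.23 ± 0.27 and Sesn3 by 0.52 ± 0.12, and Foxo6 fell by 0.59 ± 0.15 (limma adjusted p = 0.00297, 0.00773, 0.0101 and 0.0133). On polyribosomes 3 rose, Pik3ip1, Ccng2 and Tsc22d3 (1.17 ± 0.27, 0.88 ± 0.22 and 0.60 ± 0.18), and Foxo6 fell by 0.82 ± 0.16 (limma adjusted p = 0.0116, 0.0152, 0.0327 and 0.00544). Translational efficiency fell for Foxo3 (-0.79 ± 0.14), Irs2 (-0.84 ± 0.15) and Foxo1 (-0.48 ± 0.14) (limma adjusted p = 0.00613, 0.00613 and 0.0286). Of 8 MYC family genes, the antagonists Mxd1, Mxd4 and Mxi1 rose in total RNA (1.03 ± 0.19, 0.78 ± 0.18 and 0.67 ± 0.20, limma adjusted p = 0.00458, 0.00879 and 0.0240), and Mxd1 and Mxi1 rose on polyribosomes (0.89 ± 0.21 and 0.74 ± 0.22, limma adjusted p = 0.0117 and 0.0339). Myc did not pass on polyribosomes (-0.47 ± 0.17, limma adjusted p = 0.0591), and no MYC family gene passed in translational efficiency (limma, 1 of 8 at an unadjusted p under 0.05).

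Markers of other cell types and of sex also differed between the cultures. Oligodendrocyte markers rose for 9 of 9 genes tested in both fractions, and their 10 genes summed to 18823 to 25706 in mutant and 9132 to 10846 in wild-type total RNA. Microglial markers passed as higher for 5 of 15 in total RNA and 1 of 13 on polyribosomes. Choroid plexus markers passed as higher for 2 of 5 genes tested in total RNA and 4 of 5 on polyribosomes. In total RNA their 8 genes summed to 1362, 1546, 3657 and 1578 in mutant cultures 1 to 4, against 959 to 1234 in wild-type cultures, highest in mutant culture 3, which also had the most Cdkn1c. The sums of oligodendrocyte, fibroblast, endothelial and mural, and neuroblast and neuron markers in total RNA were highest in that culture too. Microglial and NSC marker sums were not. Endothelial and mural markers passed as higher for 3 and lower for 1 of 6 in total RNA, fibroblast markers as higher for 1 of 5, and neuroblast and neuron markers as higher for 2 and lower for 2 of 9. The part of these cell types in the changes of the G1 genes was not tested. Without mutant cultures 2 and 4, where the microglial sums were highest, 7 of the 10 genes passed on polyribosomes, with Ccne2, Cdk6 and Cdkn1a added, while the number of all genes that passed was 5395, against 3403 with all cultures. With the mean Y-linked level as a covariate no G1 gene passed in any comparison (limma, with 3, 3 and 1 of the 10 at an unadjusted p under 0.05 in total RNA, polyribosomal RNA and translational efficiency), and over all genes 1063, 30 and 0 passed (5181, 3103 and 2214 at an unadjusted p under 0.05). The log2 changes in total RNA were then -0.99 for Ccne1, -1.01 for Ccne2, -0.46 for Cdk4, -0.67 for Cdk6 and 0.44 for Cdkn1c (adjusted p 0.0511 to 0.302). On polyribosomes they were -0.32 for Ccnd1, -0.48 for Ccnd2, -0.82 for Ccne1 and 0.46 for Cdkn1c (adjusted p 0.133 to 0.299). The Y-linked sums were low in mutant cultures 2 to 4 and high in wild-type cultures 1 to 3, so this covariate overlaps with genotype. An effect of sex and a loss of precision therefore cannot be told apart in these fits. Mutant culture 1, the one mutant culture with Y-linked values like those of wild-type cultures 1 to 3, lay below each of those wild-type cultures for Ccne1, Ccne2, Cdk4 and Cdk6 and above them for Cdkn1c in total RNA. For all of these but Ccne2 that already follows from the lack of overlap between genotypes. With 1 such mutant culture, the part of sex in the changes was not tested.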

How the data were processed

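Reads of poly(A)-selected, unstranded libraries were trimmed, aligned with STAR to mm10 and normalized with DESeq2 by the authors. The deposited values are a signal, namely gene read counts that had been divided by normalization factors, with 1 table of 8 libraries per fraction. The read counter is not given in the sources used here. Of 24972 rows 26 had become dates and were left out. Low values lay within 0.1 of whole multiples of a step for 88.8% to 91.9% of values in total RNA and 66.9% to 92.6% in polyribosomal RNA, so reads were not recovered and no count model was used. Depth was the column total divided by that step.

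Genes with a table mean of at least 10 were tested in R 4.3.3 with limma 3.58.1, on log2 values with a pseudocount of 1, using robust moderation, a trend of variance on level and Benjamini-Hochberg adjustment over all genes at 0.05. On this scale changes of low genes are understated, and ± after a log2 change gives the standard error. Translational efficiency was the interaction of genotype and fraction with culture as a block, since deviations of the libraries of 1 culture correlated at 0.233 to 0.731 and the labels give them 1 number. Animal and litter of a culture are not given, so the p-values reflect only how cultures differ among themselves, and 4 cultures per group limit precision. The fits were also run on simulated counts, drawn with the same dispersion for all genes and libraries and with no culture effect. That run does not cover the pairing of fractions within a culture or a spread that differs between genotypes. Alternatives were another pseudocount, filter, scaling and moderation, a block, a Y-linked covariate and cultures left out. The 10 genes and the pathway lists were chosen with earlier results of these data known. All 10 genes are named, with up to 3 genes per list and comparison by smallest p, any called against its list, the 2 most alike genes, and neighbours with overlapping exons, added after their values were seen. A few of the most alike genes are not reported here. Positions and exon overlaps are from GENCODE M21 (GRCm38, the build of mm10).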

Additional observations from a re-analysis of the deposited data

How the results depend on the processing

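Among single genes, 416 of 490 values under an alternative kept their direction and their side of the threshold, 45 lost a call, 13 gained one and 16 turned sign. None of those 16 was in a comparison where the gene had been called. The cause was not tested for any of these. The number of the 10 genes that passed was 3 to 6 in total RNA, 2 to 6 on polyribosomes and 0 to 2 in translational efficiency when 1 culture was left out (limma; 2 to 3 at an unadjusted p under 0.05 where it was 0), and the number of all genes 4190 to 6648, 1888 to 4086 and 647 to 3282. Of the 10, 3 passed in total RNA without mutant culture 1 or wild-type culture 2 or 3, 2 passed on polyribosomes without mutant culture 1 or 3 or wild-type culture 2 or 3, and in translational efficiency 0 passed without mutant culture 1 or wild-type culture 2, 3 or 4 and 2 without wild-type culture 1. Of all genes, 1888 to 2149 passed on polyribosomes without mutant culture 1 or 3 or wild-type culture 1, 2 or 3, and 647 to 1227 in translational efficiency without mutant culture 1 or 3 or wild-type culture 2 or 3. With the Y-linked covariate 0, 0 and 0 of the 10 passed, and 1063, 30 and 0 of all genes. Without mutant cultures 2 and 4 the polyribosomal counts were 7 of the 10 and 5395 of all genes. In translational efficiency 0 of the 10 passed with no filter on low values (2 at an unadjusted p under 0.05). Leaving out the culture block gave 0 of the 10 (2 at an unadjusted p under 0.05) and 0 of all genes (2221), against 1 and 1787 with the block as a random effect.

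Same-numbered mutant and wild-type cultures share only a number (correlations of deviations -0.127 to 0.127). With it as a block, 4 of the 10 passed in total RNA (4741 of all genes) and 2 on polyribosomes (2361 of all genes). With the longest transcript the order of levels in total RNA kept 4 of 10 ranks in mutant and 5 in wild-type cultures. Signs turned for Ccnd1 in total RNA with library size alone (0.043), upper quartile scaling (0.017) and a culture left out (-0.11 to 0.045). On polyribosomes they turned for Ccnd3 with library size alone (0.086), upper quartile scaling (0.039), a culture left out (-0.11 to 0.062), without mutant cultures 2 and 4 (0.055) and with the Y-linked covariate (0.12), for Cdk4 with library size alone (0.024), and for Cdkn1b with library size alone and without mutant cultures 2 and 4 (0.030 each). In translational efficiency they turned with a culture left out for Ccnd2 (-0.17 to 0.0073), Ccne1 (-0.023 to 0.096) and Cdkn1c (-0.083 to 0.11), and for Cdkn1c without mutant cultures 2 and 4 (-0.0034). No value of the 10 genes lay far from its group of 4 by Dixon's test, over 40 groups. On 4 values that test flags only a very distant one, and it takes each gene alone, so it cannot show a culture that is extreme over several genes. In total RNA mutant culture 3 was the lowest culture for every cyclin and both kinases. It was the highest for Cdkn1b and Cdkn1c, but neither for Cdkn1a. With 4 cultures a group and separately normalized tables, small changes such as those of Cdkn1a and Cdkn1b were not resolved.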
